A study of Mus musculus with 5 samples.

Results

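The Wnt ligands examined here were Wnt2, Wnt4, Wnt5a, Wnt5b, Wnt7b, Wnt9a, Wnt10a, Wnt10b, Wnt11 and Wnt16, found by symbol in the authors' gene tables. All 10 had 1 locus each, out of 21372 gene symbols, and none shared its locus with another gene. RNA-seq values came from 5 cultures of mouse embryonic fibroblasts (MEFs, connective-tissue cells grown from embryos), with 1 library per group. WT was the line with a wild-type Prep1 genotype, and its labels name no vector. The other 4 lines were Prep1-hypomorphic, which means that they carried an allele giving less of the homeobox factor Prep1 (gene Pknox1). MP was labelled as overexpressing Meis1 together with Prep1, M as overexpressing Meis1, P as overexpressing Prep1, and EV as infected with an empty vector. All 5 lines were C57BL/6 cells from E14.5 embryos, at passage 30. A single culture protocol, which names hypomorphic embryos, is attached to all 5, WT included. WT therefore differed from the other lines in genotype, origin and infection at once, and these cannot be told apart.

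Wnt ligands are secreted glycoproteins that receive a lipid from the enzyme Porcn and leave the cell with the carrier Wls. They bind Frizzled receptors, either with Lrp5 or Lrp6, which stabilises beta-catenin and turns on genes with TCF and LEF factors, or with Ror and Ryk receptors, which act on cell shape and movement. In mesenchymal cells Wnt10b and Wnt10a are known to hold back fat cell formation and favour bone formation, and Wnt5a is a main ligand of the beta-catenin-independent branch in the growing limb.

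Levels are FPKM (fragments per kilobase of transcript and total of mapped fragments), which are per length. Setting different genes side by side is limited here, since high levels were compressed, as given below. In each library they were scaled so that the upper quartile of single-gene loci was 10, because the upper quartiles of the deposited values spanned a 44.5-fold range. Differences are log2((level + 1)/(level + 1)) of scaled levels, a scale that understates changes of low genes. A gene is called 2-fold apart where this value is at least 1 in size and the gene reached 1 scaled unit in 1 of the 2 libraries. Because each group is 1 library, differences stand without replicates or p-values and compare libraries, not conditions. In bulk RNA, fewer cells of a type and less RNA per cell cannot be told apart.

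The libraries themselves set limits on low values. Pknox1 stood at 11.0 scaled units in WT, 0.569 in the library labelled MP, 3.25 in M, 0.554 in the library labelled P and 2.16 in EV, which goes against the labels P and MP. Meis1 stood at 12.4 in WT, 15.4 in the library labelled MP, 16.8 in M, 8.86 in the library labelled P and 8.32 in EV. Among the hypomorphic lines it was higher in those labelled with added Meis1, and WT, which has none, lay between. Olfactory and vomeronasal receptor genes, which belong to sensory neurons of the nose, served as a gauge of signal at genes not expected in fibroblasts: the 95th percentile of 1422 such genes was 0.0693 in WT, 0.0976 in the library labelled MP, 0.869 in M, 0.0497 in the library labelled P and 0.565 in EV. Levels were compressed at the top, with the 99th percentile of genes between 17.8 and 21.2 scaled units. The 10 fibroblast markers summed to between 95.1 and 108 scaled units, with Fap at 0 in the library labelled MP and no other marker of that list at 0. Single fibroblast markers set WT apart all the same: Fap was at 3.50 in WT and at 0.161 or less elsewhere, Lum at 1.92 in WT and at 0.237 or less elsewhere, Pdgfra at 11.8 in WT and between 2.56 and 7.72 elsewhere, and Col3a1 at 5.46 in WT and between 11.6 and 12.5 elsewhere. Epithelial markers summed to between 0.453 and 3.58 (7 genes), endothelial to between 0.663 and 1.88 (5 genes), and haematopoietic to between 1.58 and 4.29 (4 of 5 genes measured), most of it from Csf1r. Epcam was at 0 in M, Krt5 in the libraries labelled MP and P, Krt18 in WT, Tie1 in the libraries labelled P and MP and in WT, Emr1 in the same 3 libraries, and Cd3e in the libraries labelled P and MP. Neural markers summed to 28.3 in WT and to between 20.5 and 24.0 in the other libraries, nearly all of it from Tubb3 and Map2, and no neural marker was at 0. Tubb3 was highest in WT and between 5.05 and 9.23 elsewhere, Map2 at 16.2 in WT and 15.8 in EV, and Gfap, Sox10 and Rbfox3 were lowest in WT, at 0.0442, 0.0462 and 0.00977.

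The fibroblasts expressed mainly a pair of Wnt ligands, Wnt5a and Wnt10b. These genes together held 71.2% of the summed level of the 10 ligands in WT, 71.0% in the library labelled MP, 79.6% in M, 71.7% in the library labelled P and 76.0% in EV. These shares are rough, since high levels were compressed and some low ligands lay under the 95th percentile of the receptor genes. The summed level was 43.4 scaled units in WT, 15.1 in the library labelled MP, 15.9 in M, 24.9 in the library labelled P and 20.9 in EV, and so highest in WT. In WT all 10 ligands stood above the 95th percentile of the receptor genes. Fewer did so elsewhere, 7 in the library labelled MP, 3 in M, 8 in the library labelled P and 4 in EV. That percentile itself ran from 0.0497 in the library labelled P to 0.869 in M, so these counts do not rank libraries by ligand expression. Wnt7b, for one, was above it at 0.168 in WT and under it at 0.512 in EV. The levels of Wnt2, Wnt5b, Wnt7b, Wnt10a, Wnt11 and Wnt16 in M and EV, and of Wnt9a in M, lay under that percentile.

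**Figure D1:**
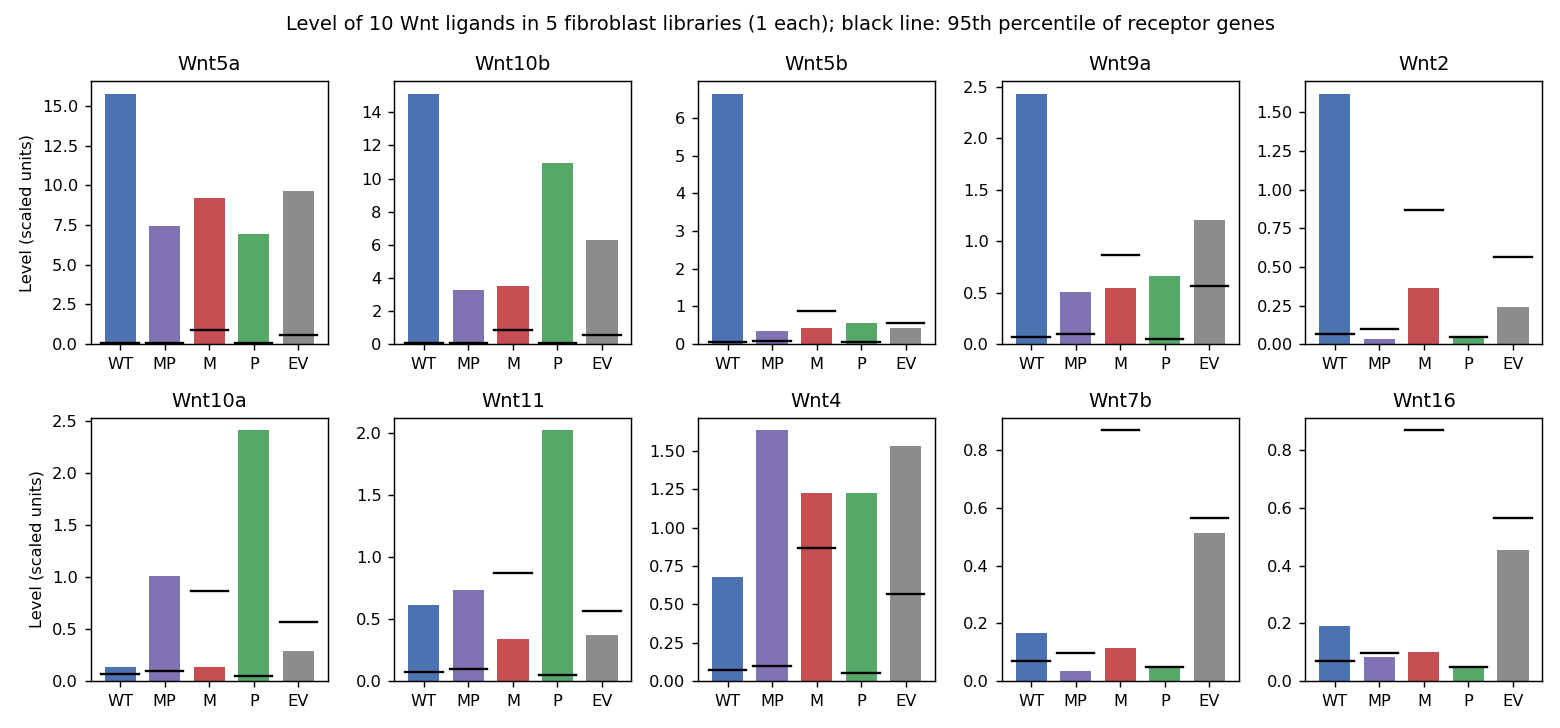
Level of each Wnt ligand in scaled units (vertical axis, its own range per panel, from 0) in the WT, MP, M, P and EV libraries, 1 bar per library. The black line over each bar is the 95th percentile of olfactory and vomeronasal receptor genes in that library: in WT all 10 bars reach above it, in EV 4 and in M 3. The line is higher in M and EV than in WT, so these counts do not compare ligand levels.

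Promoter sequence is shown for Wnt5b and Wnt10b, whose levels differed most between lines, and for Wnt11, which with Wnt10a was highest in the library labelled P. RefSeq starts (build GRCm38.p6) were found for 7 of the 10 ligands, namely Wnt2, Wnt4, Wnt5b, Wnt9a, Wnt10b, Wnt11 and Wnt16, with 10 start sites in all. Each sequence is the 250 bases before a start, and capitals mark matches on either strand to TGANTCA (the AP-1 site bound by Fos and Jun proteins) or ATCAAAG (a site of TCF and LEF factors). The study's title names Meis1, Prep1 and AP-1 sites, which is why these letters were searched.
Wnt5b, first start, chr6:119544348-119544597, minus strand: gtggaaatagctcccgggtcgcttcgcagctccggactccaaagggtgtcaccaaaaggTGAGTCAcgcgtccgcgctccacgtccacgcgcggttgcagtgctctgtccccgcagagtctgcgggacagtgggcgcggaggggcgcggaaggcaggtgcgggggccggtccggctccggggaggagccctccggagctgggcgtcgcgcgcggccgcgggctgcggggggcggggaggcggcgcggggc
Wnt5b, most downstream start, chr6:119449387-119449636, minus strand: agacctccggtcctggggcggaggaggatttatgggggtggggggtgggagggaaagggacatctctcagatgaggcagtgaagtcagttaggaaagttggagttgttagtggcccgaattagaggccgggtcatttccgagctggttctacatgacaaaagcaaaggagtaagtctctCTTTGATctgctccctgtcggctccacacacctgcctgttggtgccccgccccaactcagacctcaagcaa
Wnt11, first start, chr7:98834862-98835111, plus strand: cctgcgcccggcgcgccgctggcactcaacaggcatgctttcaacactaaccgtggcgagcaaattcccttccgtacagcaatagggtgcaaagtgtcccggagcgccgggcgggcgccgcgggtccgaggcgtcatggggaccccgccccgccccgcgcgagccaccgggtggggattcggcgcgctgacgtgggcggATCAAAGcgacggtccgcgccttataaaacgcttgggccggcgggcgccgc
Wnt10b, chr15:98778151-98778400, minus strand: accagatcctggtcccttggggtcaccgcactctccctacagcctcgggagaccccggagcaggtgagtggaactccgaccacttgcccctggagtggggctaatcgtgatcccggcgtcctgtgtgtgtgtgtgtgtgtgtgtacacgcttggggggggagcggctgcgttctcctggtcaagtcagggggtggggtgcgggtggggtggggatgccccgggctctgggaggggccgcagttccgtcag

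The AP-1 letters lay 191 bases before the first Wnt5b start, and no other ligand start held them. Among 32851 RefSeq promoters of that length, 6.75% held TGANTCA. The TCF and LEF letters lay 71 bases before the most downstream Wnt5b start and 51 bases before the first Wnt11 start, against 3.21% of all promoters. TGACAG, the core bound by Meis and Prep proteins, was found before Wnt4 alone, 130 bases from its start, and in 15.9% of all promoters. The composite site bound by Pbx with Prep or Meis, which joins TGAT to TGACAG and so overlaps it, was found at no ligand start and in 0.198% of all promoters. These matches are descriptions of letters and not of binding. The starts of Wnt10b, Wnt2, Wnt9a and Wnt16 held none of the 4 motifs in this window.

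On scaled values, 5 ligands (Wnt2, Wnt5a, Wnt5b, Wnt9a and Wnt10b) were highest in WT, and Wnt5b differed most from the hypomorphic lines. Wnt5b, a ligand of the beta-catenin-independent branch known from cartilage, stood at 6.64 scaled units in WT, 0.342 in the library labelled MP, 0.436 in M, 0.565 in the library labelled P and 0.424 in EV. The 4 hypomorphic lines lay close together and well below WT. The log2 difference was 2.42 for WT against EV, where its level lay under the receptor-gene percentile, and 2.29 for WT against the library labelled P, in which WT was 11.8 times as high. This was the one ligand whose neighbours in the order of levels, WT and the library labelled P, were 2-fold apart.

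Wnt5a, the close relative of Wnt5b, stood at 15.8 in WT, 7.44 in the library labelled MP, 9.18 in M, 6.93 in the library labelled P and 9.62 in EV. It was the best expressed ligand in WT, MP, M and EV, and in WT it lay at the 98.0th percentile of genes, where levels were compressed. Its log2 difference was 0.66 for WT against EV, short of 2-fold, and 1.08 for WT against the library labelled P. Scaled to the library median instead, the difference from the library labelled P was 0.79, which ends that call.

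Wnt9a, a beta-catenin ligand of developing joints, stood at 2.43 in WT, 0.509 in the library labelled MP, 0.548 in M, 0.664 in the library labelled P and 1.20 in EV. WT was highest and EV second, and the other 3 libraries lay within 2-fold of each other. WT was above the library labelled P by log2 1.04 and above EV by 0.64. The call against the library labelled P was at the threshold, since scaling over genes found in every library gave 0.99.

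Wnt2, which acts through beta-catenin in lung and placenta, stood at 1.62 in WT, 0.0351 in the library labelled MP, 0.363 in M, 0.0523 in the library labelled P and 0.241 in EV. WT alone reached 1 scaled unit. The differences were log2 1.08 for WT against EV, where its level lay under the receptor-gene percentile, and 1.32 for WT against the library labelled P. At 5 scaled units or more as the entry level, Wnt2 would not be counted.

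Wnt10b was high in WT and in the library labelled P and low in the libraries labelled with added Meis1. It stood at 15.1 in WT, 3.28 in the library labelled MP, 3.50 in M, 10.9 in the library labelled P and 6.28 in EV. Neighbours in this order were all within 2-fold, and the ends were log2 1.91 apart. WT was 2-fold above EV (log2 1.15, but 0.91 and no longer called when scaled to the library median) and within 2-fold of the library labelled P (0.43). The WT level of Wnt10b lay at the 97.5th percentile of genes, where levels were compressed. Meis1 was higher in WT (12.4) than in the library labelled P (8.86) and EV (8.32), so the levels of Meis1 and Wnt10b were not in reverse order. A link between them was not tested.

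Both libraries labelled with added Meis1 held less Wnt10b, on scaled values, than the library without it on the same background. The log2 difference was -1.48 for the library labelled MP against the library labelled P, which was the single ligand called in that comparison. For M against EV it was -0.69, short of 2-fold, and 0.60 on values as deposited, where M lay above EV as a whole. The library labelled MP and M differed by -0.07. P against EV gave 0.71, also short of 2-fold.

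Wnt10a and Wnt11 were highest in the library labelled P. Wnt10a, a beta-catenin ligand of skin and teeth, stood at 0.130 in WT, 1.01 in the library labelled MP, 0.133 in M, 2.41 in the library labelled P and 0.283 in EV. Both libraries labelled as carrying added Prep1 were above the other 3. The log2 difference was 1.41 for the library labelled P against EV, 0.64 for the library labelled MP against EV and 0.82 for the library labelled MP against M. WT was below the library labelled P by log2 -1.59, the one lower call of a ligand in WT on the scale used here.

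Wnt11, a beta-catenin-independent ligand of cell movements and kidney branching, stood at 0.616 in WT, 0.738 in the library labelled MP, 0.337 in M, 2.03 in the library labelled P and 0.370 in EV. The library labelled P alone passed 1 unit. It was above EV by log2 1.14. The library labelled MP lay between, at -0.80 against the library labelled P and 0.38 against M. WT was below the library labelled P by log2 -0.91, short of 2-fold. Wnt11 was called lower in WT than in that library when scaled to the library median (-1.83) and with a pseudocount of 0.1 (-1.57). EV levels of Wnt10a and Wnt11 lay under the receptor-gene percentile of that library, and Pknox1 was low in the libraries labelled P and MP, as given above. The part of either in these differences was not tested.

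The last 3 ligands were not called in any comparison on this scale, on which changes of low genes are understated. Wnt4, which acts in kidney and the female reproductive tract, stood at 0.677 in WT, 1.64 in the library labelled MP, 1.23 in M, 1.23 in the library labelled P and 1.53 in EV. It was the one member of the 10 whose lowest level was in WT while the 4 hypomorphic lines were above 1 unit, with a log2 difference of -0.60 for WT against EV and -0.41 for WT against the library labelled P. Wnt7b, a ligand of lung, kidney and bone growth, lay between 0.0348 and 0.512, highest in EV. Wnt16, a ligand known for cortical bone, lay between 0.0497 and 0.455, also highest in EV. Neither reached 1 unit in any library. Both were above the receptor-gene percentile of their own library in WT alone, and that percentile was higher in EV than in WT. Scaled to the library median, Wnt4 was called lower in WT than in EV (log2 -1.31) and than in the library labelled P (-1.06), and with a pseudocount of 0.1 it was lower in WT than in EV. Under that median scaling Wnt7b and Wnt16 were called lower in WT, in the library labelled MP, in M and in the library labelled P than in EV, by -1.80 and -1.62 in the library labelled P.

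**Figure D2:**
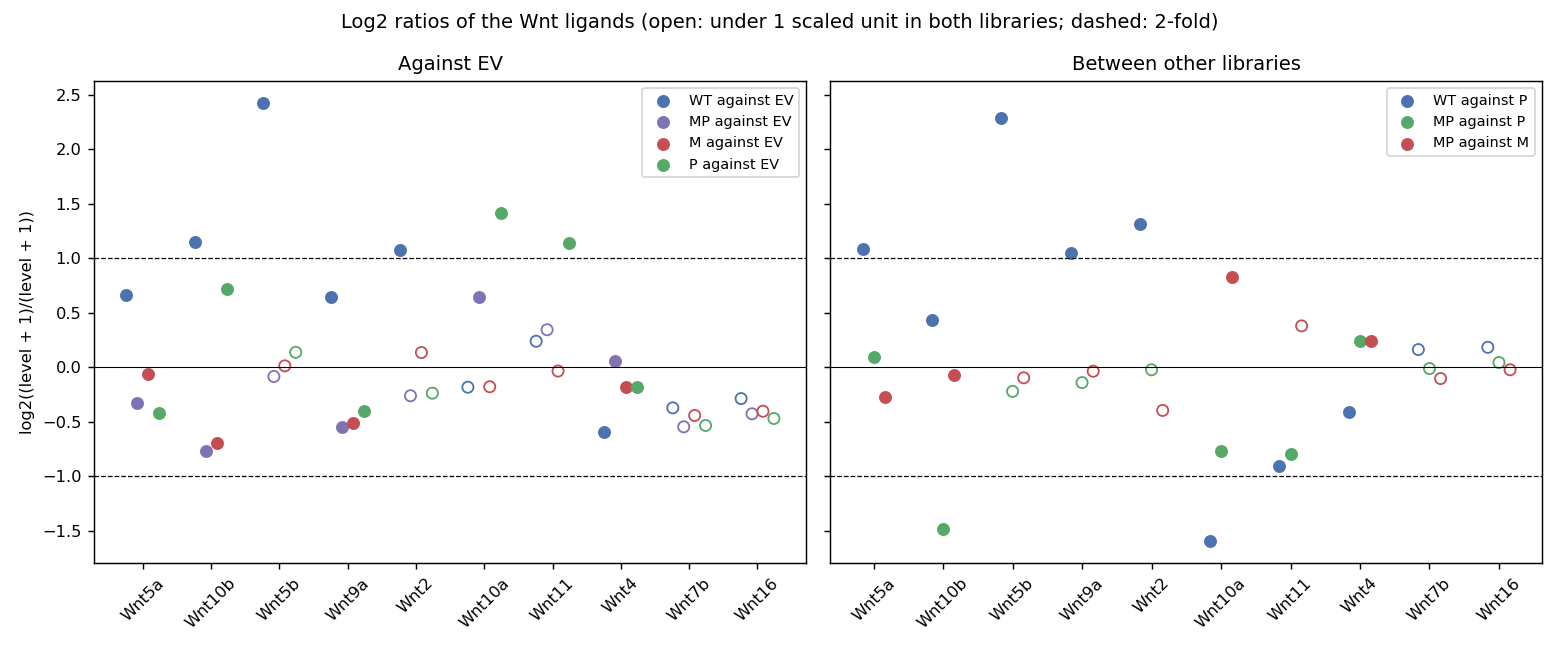
Log2((level + 1)/(level + 1)) of each Wnt ligand (vertical axis) for the WT, MP, M and P libraries against EV (left) and for WT and MP against P and MP against M (right), 1 point per comparison of 2 libraries, open where both levels were under 1 scaled unit, dashed lines at 2-fold. Wnt5b in WT stands highest on both sides, at 2.42 and 2.29, and Wnt10b is at -1.48 in MP against P; unscaled, differences from EV follow the shift of each library.

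Only ligands at 1 scaled unit or more in 1 of the 2 libraries were kept and could be called. Of the 10 ligands, WT against the library labelled P kept 8 and gave 4 higher (Wnt2, Wnt5a, Wnt5b and Wnt9a) and 1 lower (Wnt10a). Of 11403 genes kept, 6.4% were higher and 1.91% lower. WT against EV kept 6 and gave 3 higher (Wnt2, Wnt5b and Wnt10b) and 0 lower, against 6.31% and 3.2% of 11656 genes. In these comparisons the median log2 difference of the 10 ligands was 0.31 (0.00 over all genes) and 0.44 (-0.21 over all genes). Fap, Lum, Pdgfra, Col3a1 and Tubb3 also set WT apart, as given above, and their part in the WT differences was not tested.

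Among the hypomorphic lines few ligands were apart. The library labelled P against EV kept 6 ligands, with 2 higher (Wnt10a and Wnt11) and 0 lower, against 0.654% and 1.85% of 11163 genes. The median of all 10 ligands was -0.21 (-0.19 over all genes). The library labelled MP against the library labelled P kept 5 and gave 0 higher and 1 lower (Wnt10b). Of 10771 genes kept, 0.251% were higher and 0.761% lower, and the ligand median was -0.08 (0.00). No ligand was called in M against EV (0.296% of 11144 genes higher and 0.628% lower), in the library labelled MP against EV (0.208% and 2.05% of 11034) or in the library labelled MP against M (0.23% and 1.28% of 10855). These comparisons kept 4, 5 and 4 ligands, so the absence of calls rests on few. Medians over all 10 ligands were, in the same order, -0.18 (-0.09 over all genes), -0.30 (-0.19) and -0.05 (-0.05). Scaled to the library median, these comparisons did hold calls. In the library labelled MP, Wnt10a (log2 1.82) and Wnt11 (1.15) were then higher and Wnt2, Wnt7b and Wnt16 lower than in EV, and Wnt10a (2.41) and Wnt11 (1.21) higher and Wnt2 lower than in M, and in M, Wnt7b and Wnt16 were lower than in EV. With a pseudocount of 0.1, Wnt10a was higher in the library labelled MP than in EV and M, and Wnt9a was lower than in EV in both M and the library labelled MP. The EV levels of Wnt2, Wnt7b, Wnt10a, Wnt11 and Wnt16 lay under the receptor-gene percentile of EV. In M, the levels of the same ligands and of Wnt9a lay under that of M. The part of raised background in these calls was not tested, and shares of all genes were not computed under these settings. On values as deposited, differences from EV followed the shift of the whole library, and no ligand was then called higher in WT or the library labelled P than in EV, whereas the ligands called in WT and in the library labelled MP against the library labelled P were the same. Comparisons with EV share that library, and those with the library labelled P share that one. The ligands were picked with results of these libraries known, so the shares place the counts and do not test them.

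The authors' deposited tables test unscaled values of 1 library against EV, and many ligands there have no completed test. Of the 10, the test was completed for 5 in WT, 3 in the library labelled MP, 2 in M and 5 in the library labelled P. The authors' deposited tables mark as lower 3 ligands in WT (Wnt4, Wnt9a and Wnt11), 3 in the library labelled MP (Wnt4, Wnt9a and Wnt10a), none in M and 4 in the library labelled P (Wnt4, Wnt5b, Wnt9a and Wnt11), and none as higher. Of all single-gene loci with a completed test, the authors' deposited tables mark as lower 96.5% in WT, 99.2% in the library labelled MP, 0.0539% in M and 98.7% in the library labelled P. They mark as higher 0.104% in WT, 0.0105% in the library labelled MP, 18% in M and 0.00996% in the library labelled P. Outside M, a lower mark was thus given to nearly all loci tested. Against that background, the ligands tested in the authors' deposited tables and not marked in WT were Wnt2 (q-value 0.22) and Wnt5b (q-value 0.833), and in the library labelled P it was Wnt10a (q-value 0.245). Wnt5a and Wnt10b had no completed test in any of the 4 tables.

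Some genes followed the same profile over the libraries as the most variable ligands. Likeness was the Euclidean distance between profiles of log2(level + 1) over the 5 libraries, each centred on its mean, among 10907 genes. Nearest to Wnt5b were Eps8l2, of the Eps8 family of actin regulators (distance 0.0944), Slco2a1, a prostaglandin transporter (0.153), and Emc9, a subunit of the endoplasmic reticulum membrane complex (0.191). Eps8l2 stood at 5.63 in WT and between 0.0965 and 0.249 elsewhere. All 3 were high in WT alone.

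Nearest to Wnt10b were Cda, which encodes cytidine deaminase (0.373), Slc39a3, a zinc transporter (0.386), and Batf3, a transcription factor of the AP-1 family (0.393). Batf3 stood at 5.75 in WT, 0.935 in the library labelled MP, 0.644 in M, 2.78 in the library labelled P and 1.71 in EV, high in WT and the library labelled P like Wnt10b. For Wnt10a they were the complement gene C3 (0.336), the scaffold gene Mpp3 (0.372) and Prnd, a relative of the prion protein gene (0.375). C3 stood at 3.999 in the library labelled P and 2.13 in the library labelled MP, and at 1.51 or less in the other 3. With 5 points, near profiles are a description.

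**Figure D3:**
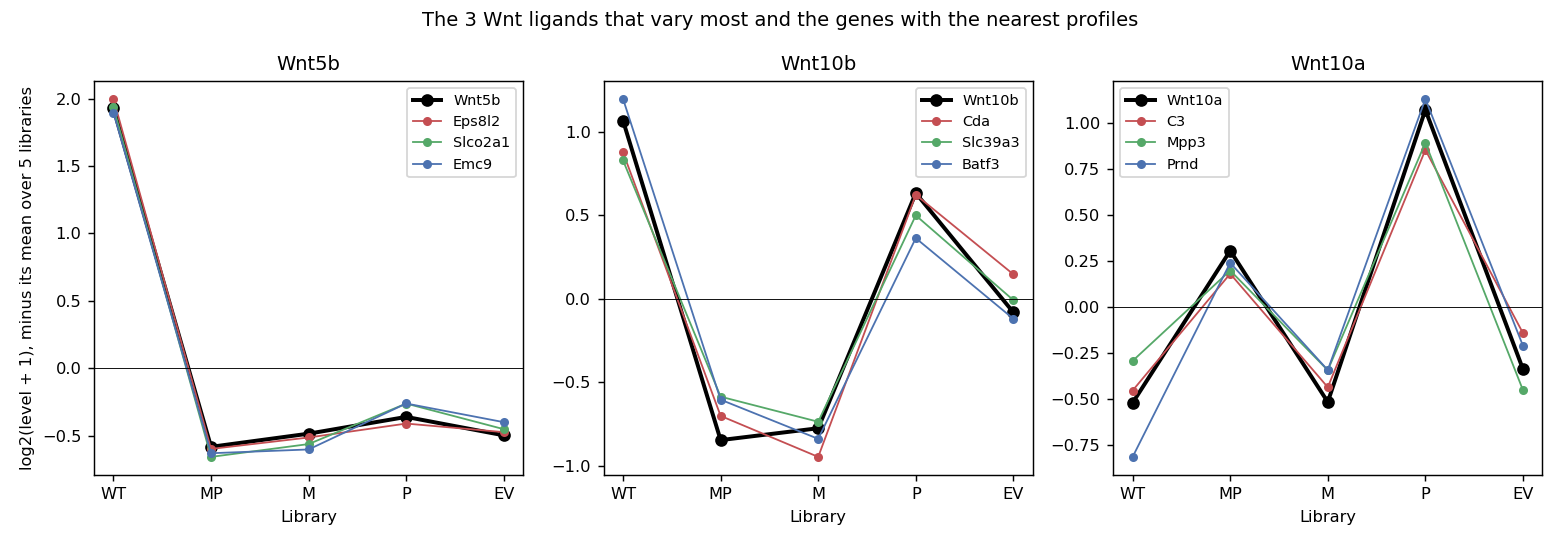
Profiles over the WT, MP, M, P and EV libraries (horizontal axis) of Wnt5b, Wnt10b and Wnt10a (black) and the 3 genes nearest to each (colours), as log2(level + 1) minus its mean over the 5 libraries (vertical axis). Wnt5b and its neighbours peak in WT, Wnt10b in WT and P, and Wnt10a in P.

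The machinery that makes and receives Wnt ligands was expressed in all lines. Porcn, which attaches the lipid, was 2-fold higher in WT, at 6.78, than in EV (1.62, log2 1.57) and the library labelled P (2.61, log2 1.11). The carrier Wls was high throughout, at 11.0 in WT, 16.5 in the library labelled MP, 15.6 in M, 13.1 in the library labelled P and 16.5 in EV. Of 16 receptors and co-receptors, 1 was called higher in WT than in the library labelled P, the receptor Ror1 at 2.72 against 0.629 (log2 1.19), and none lower. That is near the 6.4% of all genes higher in this comparison, so the count says nothing about receptors as a group. Fzd1 (log2 0.61) and Fzd6 (-0.60) came next in size. Against EV none of the 16 was called in any library, with Lrp5 at 0.92 and Ror1 at 0.78 in WT the largest. Of all genes, 6.31% were higher and 3.2% lower in WT, and at most 0.654% higher and 2.05% lower in the other libraries. At such shares the absence of calls among 16 genes says nothing about receptors as a group.

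Several genes that tune Wnt signals outside the cell differed in WT. Of 11 secreted antagonists, 4 were higher in WT than in the library labelled P, where 6.4% of all genes were higher and 1.91% lower, and 5 higher than in EV, where 6.31% were higher and 3.2% lower, with none of the 11 lower. Largest were Frzb, at 10.3 in WT, 0.0315 in the library labelled P and 0.36 in EV, and Sfrp2, at 7.69 in WT, 0.0663 in the library labelled P and 0.319 in EV. The EV levels of Frzb and Sfrp2 lay under the receptor-gene percentile of that library (0.565), as did Frzb in the library labelled P (0.0497). Of 7 R-spondins and their receptors, which raise Frizzled levels at the cell surface, Rspo3 was higher in WT, at 9.44, than in the library labelled P (0.658) and EV (2.12). Lgr6 was called higher in WT than in EV, at 4.25 against 0.973 (log2 1.41), and was short of 2-fold against the library labelled P (2.01, log2 0.80). It stood lower still in M (0.625) and the library labelled MP (0.385), with which WT was not compared. The library labelled MP stood above the library labelled P at Rspo3 (2.85, log2 1.22) and at the antagonist Sfrp1 (8.09 against 2.49, log2 1.38), and below it at Lgr6 (0.385 against 2.01, log2 -1.12). In that comparison 0.251% of all genes were higher and 0.761% lower.

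Inside the cell, none of 9 transducers was called in WT against the library labelled P, where 6.4% of all genes were higher and 1.91% lower. Against EV, where 6.31% were higher and 3.2% lower, beta-catenin itself (Ctnnb1) was lower in WT at 6.11 against 15.2 (log2 -1.19). These counts are too small to describe transducers as a group. Among 10 beta-catenin targets and factors, the feedback inhibitor Nkd2 was higher in WT, at 3.31, than in the library labelled P (0.282, log2 1.75) and EV (0.527). Its relative Nkd1 stood at 2.18 in WT, was listed at 0 in the library labelled P, and was at 0.414 in EV (log2 1.17). The EV levels of Nkd1 and Nkd2 lay under the receptor-gene percentile of that library (0.565). Lef1 was lower in WT, at 2.03, than in the library labelled P (11.96, log2 -2.09) and EV (8.47, log2 -1.64). Axin2, a target that dampens the pathway, was lower in WT (14.4) and the library labelled P (16.8) than in EV (49.0), with log2 differences of -1.70 and -1.49. In the library labelled MP, Axin2 was higher than in the library labelled P, at 37.4 against 16.8 (log2 1.11), where 0.251% of all genes were higher. The library labelled P also differed from EV at the R-spondin gene Rspo2, lower at 3.38 against 8.25 (log2 -1.08), and at the antagonist Notum, higher at 2.94 against 0.931 (log2 1.03). In that comparison 0.654% of all genes were higher and 1.85% lower. Notum was lowest in EV and not particular to the library labelled P. It stood at 4.49 in WT. M (2.54) and the library labelled MP (2.58) were above EV by log2 0.88 and 0.89, just short of 2-fold. No gene of these 6 lists was called in M against EV, in the library labelled MP against EV or in the library labelled MP against M. At most 2.05% of all genes were called either way in these comparisons. Axin2 was lowest in WT and the library labelled P, where Wnt10b was highest, but the other libraries did not follow a reverse order. EV held the most Axin2 (49.0) with Wnt10b at 6.28. In M they were at 39.0 and 3.50, and in the library labelled MP at 37.4 and 3.28. Axin2 in EV, M and the library labelled MP lay above the 99th percentile of genes. A link between Axin2 and Wnt10b was not tested.

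**Figure D4:**
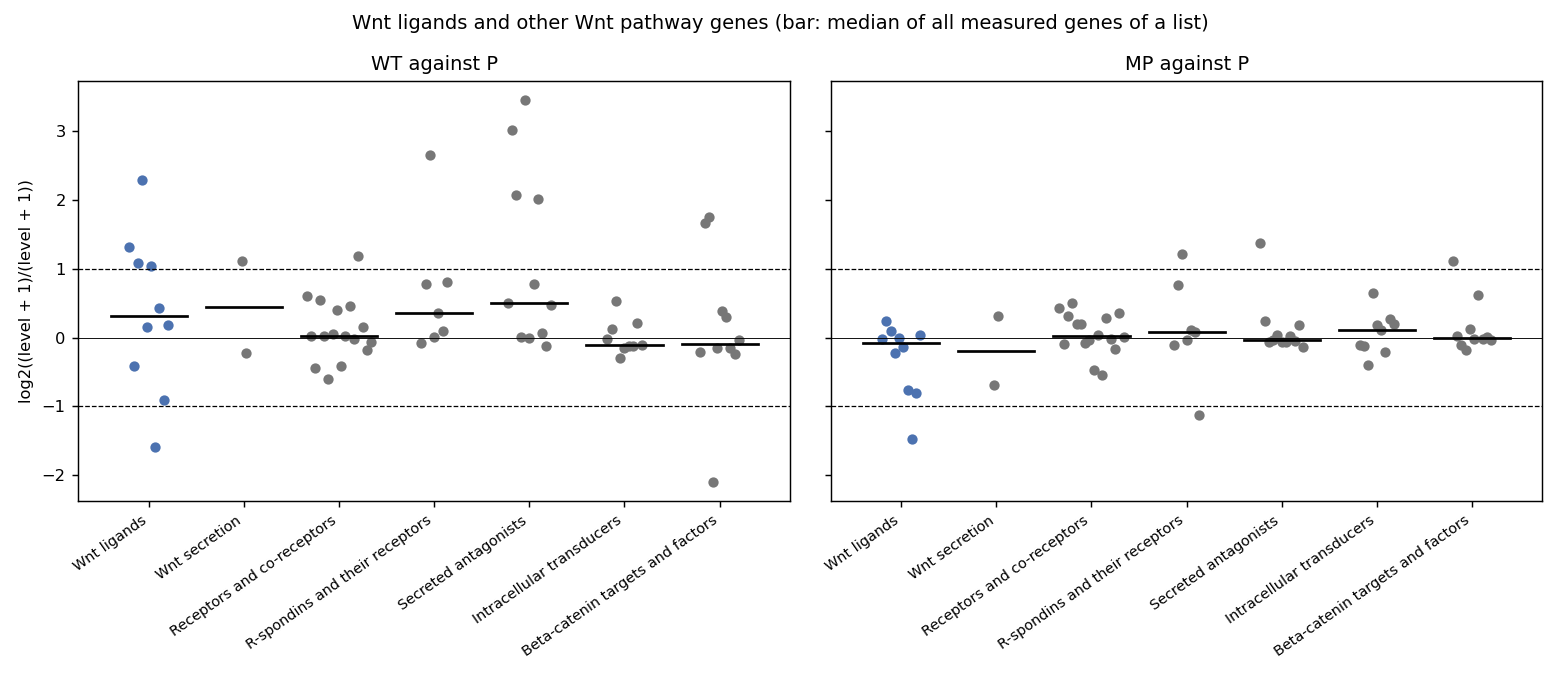
Log2((level + 1)/(level + 1)) of single genes (points) of the Wnt ligands and 6 other lists of Wnt pathway genes, for WT against P (left) and MP against P (right), with a bar at the median of all measured genes of a list and dashed lines at 2-fold. In WT against P the ligands spread from -1.59 to 2.29, whereas the 16 receptors stay between -0.60 and 1.19.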

How the data were processed

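The authors deposited 4 tables of FPKM per locus, each setting EV against 1 other library, made with TopHat, Cufflinks and Cuffdiff on mm9, per the submitters' processing notes. Versions, annotation and normalisation are not given in the sources used here. The p-value and q-value columns are the authors' deposited test of 1 library against 1, and loci they marked significant had q under 0.05. No counts or depths are given, so depth is unknown and intervals were not computed. Of 61082 loci, 37277 without a symbol and 911 joining several genes were left out of the scaling, which left 22894. EV values came from the M table. EV columns of the other tables differed from it by 1 factor each (0.972 to 1.12), within 1% at 99.1% to 99.8% of loci above 0. Each library was scaled so that its upper quartile, over 22338 loci reaching 1 FPKM somewhere, was 10, with a pseudocount of 1. How this acts on compressed levels was not tested. Of symbols with several loci, the one with the highest mean was used. The ligands, lists and comparisons were chosen with earlier results of these data known. All 10 ligands are named, with the 3 nearest profiles of the 3 most variable ones and, per list, up to 2 genes at each end. Profiles leave out predicted genes (Gm plus digits, LOC, Rik endings) and small RNA or n-R names. Singled out after their values were seen were the receptor-gene gauge, Tubb3, Map2 and Csf1r. Alternatives were other scalings, a pseudocount of 0.1, entry levels of 5 or none, the EV of the same table, and sums over loci. The arithmetic of the calls was checked on values of 1 library multiplied by constants, with fixed changes set in. That check held no noise, compression or raised background, so it cannot tell how reliable calls are in these libraries. Work was done in Python 3.11.15 with numpy 2.4.6 and pandas 2.3.3.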

Additional observations from a re-analysis of the deposited data

How the results depend on the processing

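No paired analysis was possible because each group held 1 library. The ligand counts did not change in the 4 comparisons with EV when the EV column of the same table was used, nor in the 7 comparisons with no entry level, with sums over all loci, nor by over 1.5 times with scaling over genes found in every library. Sums and the entry level had no room to act, since each ligand has 1 locus and a pseudocount of 1 keeps genes under 1 unit from a 2-fold call.

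On values as deposited, where the median of kept genes lay at log2 -3.21 for WT, -3.44 for MP, 1.26 for M and -3.36 for P against EV, and at -5.10 for MP against M, the counts followed these shifts. Higher ligands were then 0 in WT, 5 in M and 0 in P against EV, and lower ligands 8 in WT, 10 in MP and 9 in P against EV and 10 in MP against M. Directions turned for M over EV at Wnt4 (1.09), Wnt5a (1.37), Wnt9a (0.30), Wnt10a (0.30), Wnt10b (0.60) and Wnt11 (1.18); for P over EV at Wnt5b (-2.34), Wnt10a (-0.64), Wnt10b (-3.01) and Wnt11 (-1.15); for MP over EV at Wnt4 (-3.25), Wnt10a (-1.44) and Wnt11 (-1.96); for WT over EV at Wnt2 (-0.82), Wnt5a (-3.08), Wnt9a (-2.49), Wnt10b (-2.52) and Wnt11 (-2.10); for MP over M at Wnt4 (-4.38), Wnt10a (-1.77) and Wnt11 (-3.17); and for MP over P at Wnt5a (-0.15). WT against P and MP against P, whose libraries lay near each other in level, gave the same called ligands on deposited values.

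Scaling to the library median moved the median of kept genes to log2 -0.68 for WT and -0.30 for P against EV, -0.40 for WT and 0.40 for MP against P, and 0.27 for MP against M. Lower ligands were then 3 in WT, 3 in MP, 2 in M and 2 in P against EV, 1 in MP against M and 3 in WT against P, and higher ligands 2 in MP against EV and 2 in MP against M. With a pseudocount of 0.1, lower ligands were 1 each in WT, MP and M against EV, 3 in MP against P and 2 in WT against P, and higher ligands 1 in MP against EV and 1 in MP against M. With genes kept at 5 or more, higher ligands were 0 in P against EV and 2 in WT against P, and lower ligands 0 in WT against P, since Wnt2, Wnt9a, Wnt10a and Wnt11 stay under 5 units. Shares of all genes called were computed for the upper-quartile scaling of the main results only. Counts under the alternatives therefore do not tell whether ligands differ from genes at large.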

Other observations

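The 9 other Wnt ligands of the mouse (Wnt1, Wnt2b, Wnt3, Wnt3a, Wnt6, Wnt7a, Wnt8a, Wnt8b and Wnt9b) were low in all lines. Wnt2b, a close relative of Wnt2, was the one of them to reach 1 scaled unit, at 0.328 in WT, 0.545 in the library labelled MP, 1.33 in M, 0.470 in the library labelled P and 1.15 in EV. Wnt2b was thus lowest in WT, where Wnt2 was highest. Wnt3a and Wnt9b were listed at 0 in WT and in the libraries labelled MP and P.

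Of the 10 ligands, 3 have another Wnt gene as their next protein-coding neighbour in the RefSeq gene table (GRCm38.p6), and the neighbours differed in level. Wnt10b, at 3.28 to 15.1 scaled units, lies beside Wnt1, which was at 0.0290 to 0.508. Wnt9a lies beside Wnt3a, which was at 0 to 0.313. Wnt10a lies beside Wnt6, and that pair was highest in the same libraries. Wnt6 stood at 0.112 in WT, 0.505 in the library labelled MP, 0.00299 in M, 0.462 in the library labelled P and 0.213 in EV, all under 1 unit.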
